A study of Rattus norvegicus with 20 samples.

Results

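The cytochrome P450 enzymes of rat kidney were followed across a trauma-induced acute kidney injury series. Members were the rows of the deposited gene table whose symbol is Cyp followed by a number and a letter and whose normalized read count reached 10 in 3 or more of the 20 libraries. That rule uses expression level but no comparison between groups. It took 48 of the 69 P450 symbols in the table, out of 15954 rows that pass the same filter and 34681 rows in all. Cyp51, whose symbol carries no letter, is not a member. P450 enzymes are haem proteins that insert 1 oxygen atom into their substrate. Those of the endoplasmic reticulum take electrons from the reductase Por, and those of mitochondria from ferredoxin. In kidney they sit mainly in the proximal tubule, where the 4A and 4F enzymes hydroxylate fatty acids, the 2C and 2J enzymes make epoxides of arachidonic acid, and the pair Cyp27b1 and Cyp24a1 make and degrade active vitamin D.

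The samples were 20 RNA-seq libraries from frozen rat (Rattus norvegicus) kidney, made from poly(A) RNA. By their disease label 6 were Sham, 6 RM, 5 HS and 3 RM-HS. The labels do not spell out RM and HS, and they give no strain, sex, age, time after injury or part of the kidney. The design text counts 5 RM libraries and 19 in all, where the labels give 6 and 20; the 20 of the labels are used here. Separate animals are not named in any source, so each p-value reflects the scatter of these libraries alone, and that scatter may be technical. Names beginning with R were carried by all 6 Sham, all 3 RM-HS, 3 of 5 HS and 1 of 6 RM libraries. What the letter stands for is not given.

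Each library held 45047179 to 109940948 assigned reads, of which 23265956 to 51908015 lay outside the 14 mitochondrial rows. The Sham libraries were not alike in their tubule markers. Slc5a2, which takes up glucose in the first stretch of the proximal tubule, was at 6791 and 7863 in Sham 1 and Sham 6, at 48.2, 396, 180.1 and 43.1 in Sham 2 to 5, and at 9389 or more in every other library. The summed level of 7 early proximal markers was 155475 to 172265 in Sham 1 and 6, 41470 to 74526 in Sham 2 to 5, 160840 to 240976 in RM, 149902 to 183264 in HS and 197029 to 292178 in RM-HS, with no marker at 0 in every library. Beside the comparison with all 6 Sham libraries, results are therefore also given with only Sham 1 and 6 as controls, which the member rule sets out as the pair matched for cortex. That set holds fewer controls, so a call can be lost with it through fewer libraries as well as through different ones. Markers of the thick ascending limb fell in 5 of 6 genes in RM and HS and 4 of 6 in RM-HS. All 6 of 6 collecting duct markers fell in each group. With Sham 1 and 6 the counts were 5, 5 and 4, and 4, 2 and 3. Of all tested rows 26.8% fell in RM, 23.2% in HS and 21% in RM-HS, and 14.9%, 11.1% and 12.3% with Sham 1 and 6. The part that the tubule markers play in the P450 values was not tested. In whole tissue, fewer cells of a type and less RNA per cell cannot be told apart. All values are reads divided by the authors' size factor for each library, and the table holds no transcript lengths, so levels are compared between libraries and not between genes.

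Against all 6 Sham libraries, 29 of the 48 members passed limma's test in RM (14 higher, 15 lower), 25 in HS (9 higher, 16 lower) and 20 in RM-HS (12 higher, 8 lower). A call is an adjusted p under 0.05, by the Benjamini-Hochberg method over all 15954 tested rows. Of all tested rows 53% were called in RM (26.2% higher, 26.8% lower), 46.4% in HS (23.3% and 23.2%) and 42.3% in RM-HS (21.3% and 21%), against 60.4%, 52.1% and 41.7% of the members. Changes of 2-fold or more passed the test in 22 members in RM, 15 in HS and 16 in RM-HS, where 19.8%, 14.2% and 18.3% of all rows did so. The median size of the log2 fold change, in either direction, was 1.01, 0.75 and 0.96 over the members and 0.50, 0.46 and 0.49 over all tested rows. Of the members, Cyp3a9, Cyp2c22 and Cyp4f40 reached 10 in no Sham library, and Cyp1a2 and Cyp11a1 reached it in Sham libraries alone, so these 5 entered through the groups where they are high and their differences are not independent of the filter. The signed medians were near 0 in each comparison (-0.01, -0.04 and 0.03). The members as a whole made up 0.937% to 1.43% of non-mitochondrial reads in Sham, 0.804% to 1.28% in RM, 1.09% to 1.41% in HS and 0.971% to 1.53% in RM-HS, with overlap between all groups.

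The groups were fully apart in fewer members than these calls. In RM 4 members did not overlap with Sham (1 higher, 3 lower), in HS 10 (4 higher, 6 lower) and in RM-HS 14 (7 higher, 7 lower), where 25.7% (13.3% higher, 12.4% lower), 25.9% (13.7% and 12.2%) and 32.5% (16.5% and 16.1%) of all tested rows did not overlap. Upper quartile scaling, which lowered the median of all rows by 0.14, 0.12 and 0.13 log2 units, gave 11 higher and 17 lower members in RM, 9 and 18 in HS and 10 and 11 in RM-HS.

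With Sham 1 and Sham 6 as the only controls, 11 of the 48 members were called in RM (5 higher, 6 lower), 9 in HS (5 higher, 4 lower) and 9 in RM-HS (6 higher, 3 lower), beside 32.9% (18% and 14.9%), 25.7% (14.6% and 11.1%) and 27.2% (15% and 12.3%) of all rows. In each group this was a smaller share of the members than of all rows. With 6 Sham libraries the members' share was the larger in RM and HS. Calls made with both sets of controls numbered 10, 7 and 9, and no member was called in opposite directions. Cyp2s1 and Cyp4b1 rose and Cyp4v3 fell in all 3 injury groups with either set. With all 6 Sham libraries Cyp2c22, Cyp2c23, Cyp4a1 and Cyp27b1 also rose in all 3 groups, and Cyp21a1, Cyp2j4, Cyp4f17, Cyp1a1 and Cyp27a1 also fell in all 3. No member was called higher in one injury group and lower in another. When the R or S of the library names entered the fit as a covariate, 9 members passed in RM, beside 28.5% of all rows: Cyp1a2, Cyp1b1, Cyp27a1, Cyp2c11, Cyp2c23, Cyp2j4, Cyp2s1, Cyp4f18 and Cyp4v3. In that fit the RM value moved by over 1.5 times for Cyp4b1 (0.47), Cyp7b1 (0.68), Cyp27b1 (1.17), Cyp4f40 (1.53), Cyp2j10 (-0.56), Cyp8b1 (-0.21) and Cyp17a1 (-0.94). In HS 23 members passed, beside 37.4% of all rows, without Cyp4b1 (adjusted p = 0.069) and Cyp2f4 (adjusted p = 0.053).

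**Figure D1:**
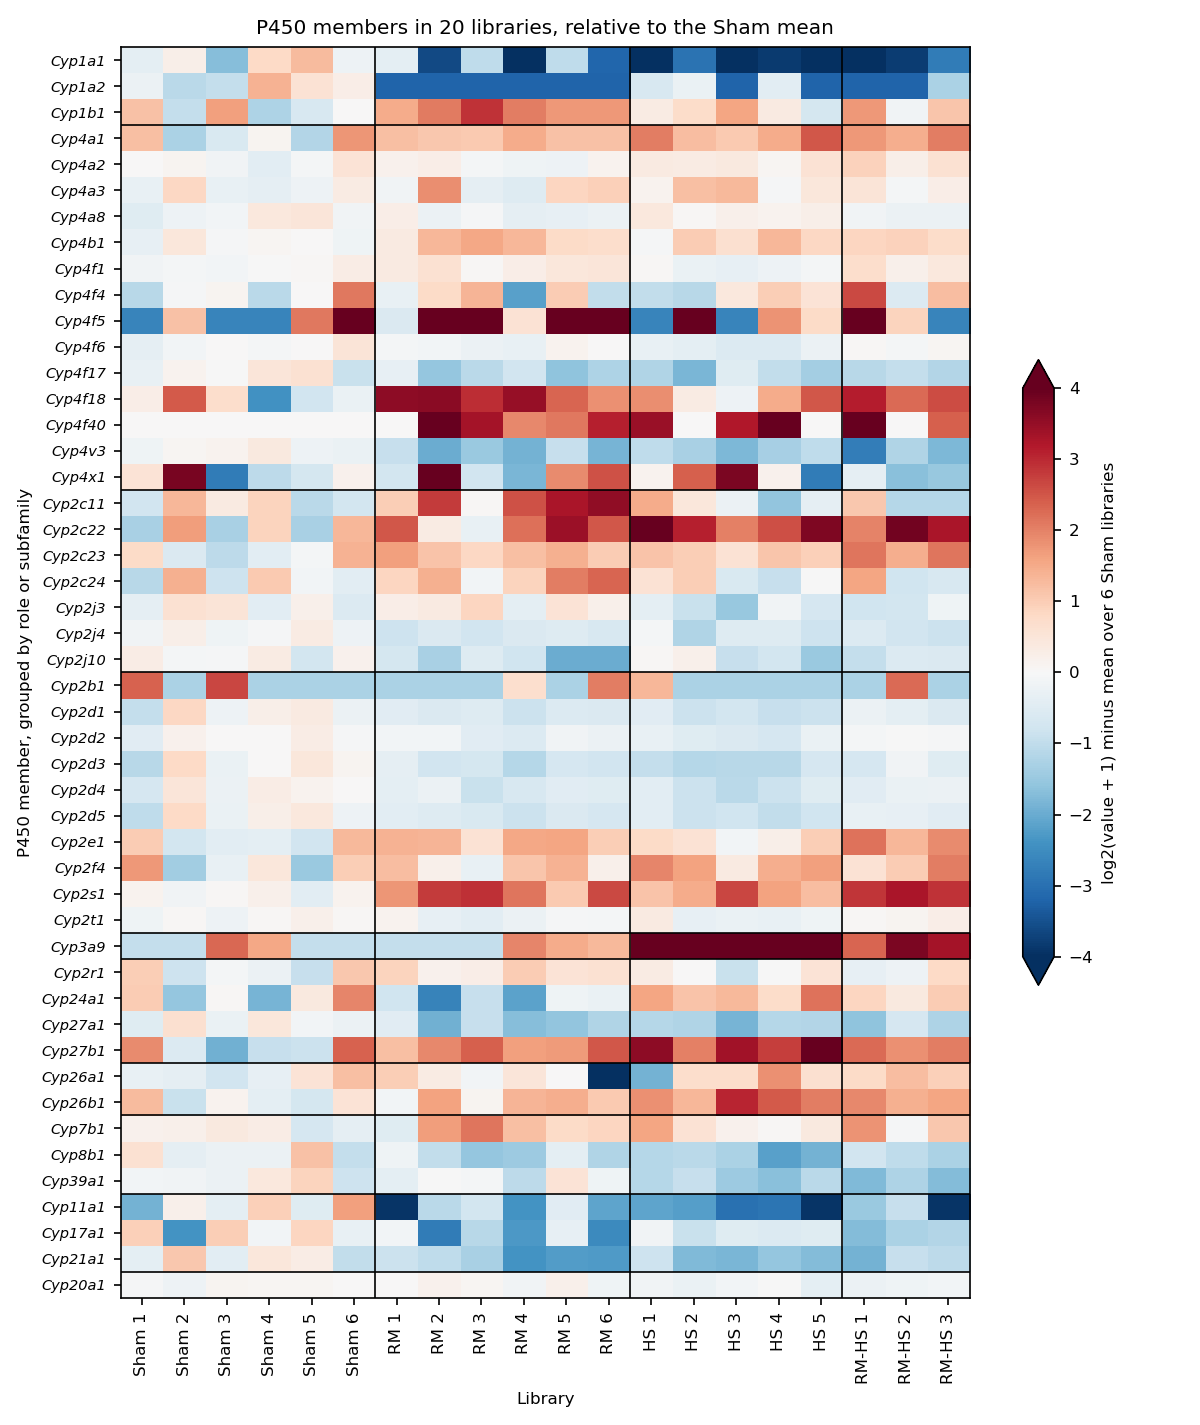
Each of the 48 members (rows, grouped by role or subfamily) in each of the 20 libraries (columns), as log2(value + 1) minus the mean over the 6 Sham libraries; colours stop at -4 and 4. Cyp1a1 is blue in every HS and RM-HS library, Cyp3a9 is dark red in all 5 HS libraries, and Cyp2s1 and Cyp4v3 differ from Sham in every injured library.

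**Figure D2:**
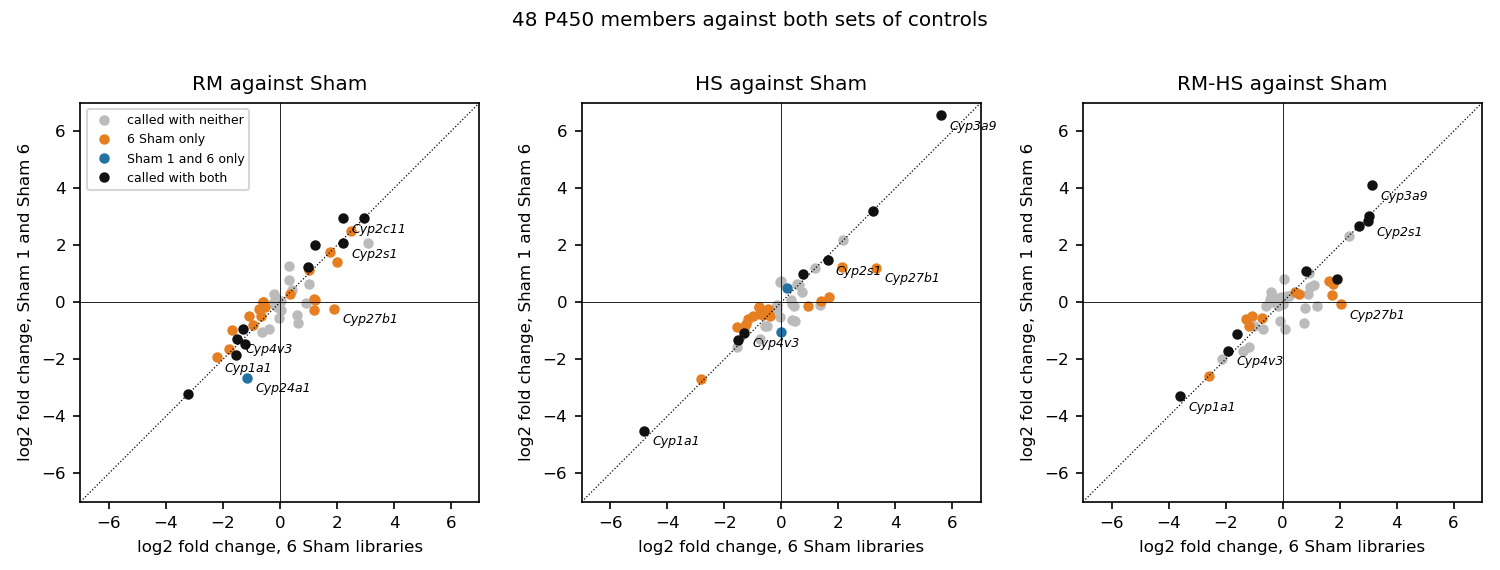
Log2 fold change of the 48 members against all 6 Sham libraries (horizontal) and against Sham 1 and Sham 6 alone (vertical) in RM, HS and RM-HS; the dotted line marks equal values, and colours show which controls gave a call. Both axes share the injured libraries and Sham 1 and 6. Cyp1a1, Cyp2s1 and Cyp4v3 lie near the line, and Cyp27b1 in HS goes from 3.33 to 1.21.

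Of the members, 3 are the classic targets of the aryl hydrocarbon receptor Ahr, and they did not move together. Cyp1a1, which oxidises polycyclic hydrocarbons, had lowest, median and highest values of 775, 2606 and 6119.8 in Sham. Its HS values were 22.4, 323, 43.3, 179 and 101, and its RM-HS values 138, 183 and 361, so no library of either group reached the lowest Sham. In RM the lowest, median and highest were 143, 760.3 and 1930.0, with 3 libraries above 1200 and 3 below 300, and the range overlapped with Sham. On the log2(value + 1) scale Cyp1a1 fell by 4.80 ± 0.72 (SE, adjusted p = 2.9e-05) in HS, by 3.59 ± 0.84 (SE, adjusted p = 0.002) in RM-HS and by 2.23 ± 0.69 (SE, adjusted p = 0.01) in RM. Against Sham 1 and 6 alone the changes were -4.50 (adjusted p = 0.0045), -3.29 (adjusted p = 0.033) and -1.93 (adjusted p = 0.14), the last no longer a call. Cyp1a1 was also higher in RM than in HS, by 2.58 ± 0.72 (SE, adjusted p = 0.014).

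Cyp1a2, the neighbour of Cyp1a1 on chromosome 8 (rn6 chr8:62451360-62458250, with Cyp1a1 at chr8:62472076-62478117), was low throughout. It reached 10 in Sham 4, 5 and 6 and in no injured library, so it passed the filter through Sham alone. It had values of 3.44 to 23.5 with a median of 8.56 in Sham and 0 in all 6 RM libraries, so the Sham mean was at least 19.1-fold higher than the level of 3 reads over the RM group. In HS the values were 4.99, 6.80, 0, 5.88 and 0, and in RM-HS 0, 0 and 2.85. The Sham to RM difference passed the test (adjusted p = 0.00062, limma) and did so with Sham 1 and 6 alone (adjusted p = 0.029). The RM-HS call (adjusted p = 0.019) was lost with Sham 1 and 6 alone (adjusted p = 0.12), with edgeR and DESeq2, and without either RM-HS 1 or RM-HS 2 (log2 fold change -2.24, adjusted p 0.0764 to 0.0857). Cyp1b1, which hydroxylates oestrogens and is found mostly outside the liver, went the other way in RM. Its lowest, median and highest values were 15.3, 30.7 and 117 in Sham and 107, 141 and 285 in RM, a rise of 1.99 ± 0.47 (SE, adjusted p = 0.0015) log2 units. The value was 1.40 (adjusted p = 0.057) with Sham 1 and 6 alone. Sham 3 (117) overlapped with RM. HS values were 47.4, 62.4, 112.7, 47.99 and 22.4 and RM-HS values 126, 33.7 and 81.2, and neither group was called.

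The receptor and its other targets were followed beside Cyp1a1, and their part in the Cyp1a1 values was not tested. Ahr itself rose by 0.74 in RM, 0.68 in HS and 0.61 in RM-HS (limma, adjusted p = 0.0035, 0.01 and 0.046). The values with Sham 1 and 6 were 0.38, 0.32 and 0.25, none of which passed. The RM-HS call of Ahr stood at the threshold and was lost without any 1 of Sham 2, Sham 4, Sham 5, RM 2, RM 4, RM 5, RM 6, HS 2, HS 3, HS 5, RM-HS 1 and RM-HS 2 (log2 fold change 0.46 to 0.61, adjusted p 0.0507 to 0.216). Tiparp, an Ahr-induced ADP-ribosyltransferase, rose by 1.35, 0.73 and 1.57 and was called with both sets of controls (adjusted p = 5.3e-08, 0.00016 and 3.4e-07). Nqo1, a quinone reductase, rose in RM by 2.12 (adjusted p = 2.1e-05). Ahrr, the repressor of the receptor, was at 70.7 and 70.3 in Sham 1 and 6, at 1.72, 9.53, 12.9 and 10.8 in Sham 2 to 5, and at 43.5 to 104 in RM. Of 5 tested Ahr targets outside the P450 family 3 rose in RM, 2 in HS and 2 in RM-HS, and none fell; against Sham 1 and 6, 2, 1 and 2 rose and none fell.

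Cyp3a9 was the only one of 5 rat 3A symbols to pass the filter; 3A enzymes oxidise steroids and many drugs. No Sham or RM library reached 10, so it passed the filter through HS and RM-HS alone, and its differences follow in part from that. Its values were 96.4, 76.0, 180.4, 134 and 41.6 in the 5 HS libraries and 8.71, 25.6 and 18.5 in RM-HS. In Sham 4 of 6 libraries were at 0 and the others at 8.58 and 4.71, and in RM 3 of 6 were at 0 with a highest value of 6.50. The lowest HS library lay above every library of the other 3 groups. Cyp3a9 rose by 5.61 ± 0.74 (SE, adjusted p = 8.7e-06) log2 units in HS and by 3.14 ± 0.87 (SE, adjusted p = 0.0068) in RM-HS, and by 6.57 (adjusted p = 0.00016) and 4.10 (adjusted p = 0.0053) with Sham 1 and 6 alone. These sizes depend on the pseudocount, since with 8 in place of 1 they were 3.40 and 1.33, both still called. RM lay below HS, with a difference of -5.30 ± 0.74 (SE, adjusted p = 4.4e-05), and RM-HS did not pass against HS, at -2.47 ± 0.90 (SE, adjusted p = 0.056). With a pseudocount of 8 that last difference was -2.07 and passed (adjusted p = 0.0013). The promoter of Cyp3a9 in RefSeq, from 250 bases before to 50 after its annotated start, is printed here with its match to ACGTG, the core letters of the hypoxia response element, in capitals. It reads on the printed strand as CACGT and begins 16 bases into the transcript.
Cyp3a9 (GRCr8 chr12:21960111-21960410, minus strand): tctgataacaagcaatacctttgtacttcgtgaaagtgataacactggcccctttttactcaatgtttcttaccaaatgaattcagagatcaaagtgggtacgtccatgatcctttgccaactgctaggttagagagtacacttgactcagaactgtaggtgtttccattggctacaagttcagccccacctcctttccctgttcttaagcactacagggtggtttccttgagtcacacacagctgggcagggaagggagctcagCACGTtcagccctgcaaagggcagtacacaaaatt

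Cyp2s1, expressed mostly outside the liver, rose in every injury group without overlap. The Sham values ran from 397 to 620.2 with a median of 573. RM had lowest, median and highest values of 1113, 2863 and 4062, the HS values were 1172, 1484, 3446, 1647 and 1255, and the RM-HS values 3891, 5148 and 3981. The group means were 5.08, 3.33 and 8.02 times the Sham mean. Changes of 2.22 ± 0.28 (SE, adjusted p = 1.9e-06) in RM, 1.63 ± 0.29 (SE, adjusted p = 0.00016) in HS and 3.01 ± 0.34 (SE, adjusted p = 1.7e-06) in RM-HS passed limma's test, and the call held in each alternative tried. Cyp2s1 was also higher in RM-HS than in HS, by 1.38 ± 0.35 (SE, adjusted p = 0.0096). Its promoter holds 1 match to TGACNNNGC, the core of the antioxidant response element, shown in capitals.
Cyp2s1 (GRCr8 chr1:90453024-90453323, minus strand): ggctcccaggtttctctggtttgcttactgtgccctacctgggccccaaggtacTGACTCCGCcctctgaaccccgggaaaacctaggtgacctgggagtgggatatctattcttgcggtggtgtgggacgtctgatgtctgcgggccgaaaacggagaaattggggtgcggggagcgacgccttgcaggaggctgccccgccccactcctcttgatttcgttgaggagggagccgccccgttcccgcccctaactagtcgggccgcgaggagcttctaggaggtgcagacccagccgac

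**Figure D3:**
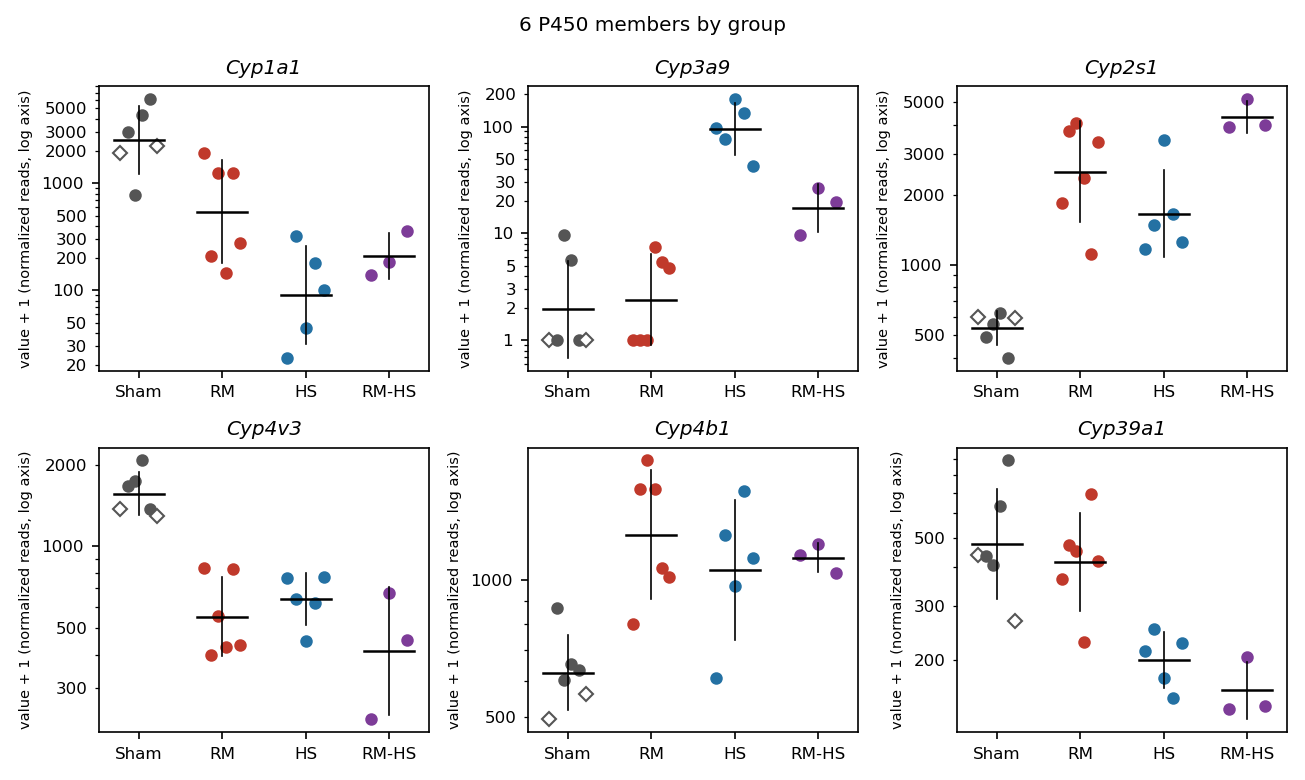
Value + 1 (normalized reads, log axis) of 6 members by group, 1 symbol per library, with open diamonds for Sham 1 and Sham 6; bars are the mean and lines ± 1 SD, both on the log scale. Cyp3a9 is at or under 9 in Sham and RM and at 41.6 or more in HS, and Cyp2s1 and Cyp4v3 do not overlap with Sham in any injury group.

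The 4 family, which hydroxylates the far end of fatty acids, had 14 members. In RM 5 rose and 2 fell, in HS 2 rose and 3 fell, and in RM-HS 5 rose and 2 fell. Of all tested rows 53% were called in RM, 46.4% in HS and 42.3% in RM-HS. The medians of the list were 0.40, 0.36 and 0.52 log2 units beside -0.04, -0.03 and -0.03 over all tested rows. In the comparison with Sham 1 and 6, 2 members of the list rose and 1 fell in each group, and the medians were 0.22, 0.13 and 0.25. The share of all rows called there was 32.9%, 25.7% and 27.2%. Cyp4v3, a fatty acid hydroxylase widely expressed outside the liver, was the clearest fall. Its Sham values were 1294 to 2070.0 with a median of 1519.5, and no library of RM (399 to 829 with a median of 493), HS (766, 639, 449, 619.9 and 772) or RM-HS (229.7, 673 and 453) reached them. It fell by 1.51 ± 0.23 (SE, adjusted p = 2.4e-05) in RM, 1.29 ± 0.25 (SE, adjusted p = 0.00027) in HS and 1.92 ± 0.29 (SE, adjusted p = 3.2e-05) in RM-HS, and by 1.28, 1.06 and 1.69 with Sham 1 and 6 alone, all called. Cyp4b1, which also activates some plant toxins, had Sham values of 494 to 864 with a median of 618, RM values of 797 to 1819 with a median of 1317, HS values of 608, 1253, 965, 1558 and 1116 and RM-HS values of 1128, 1195 and 1030.4. Only RM-HS was clear of Sham. It rose by 1.001 ± 0.21 (SE, adjusted p = 0.00051), 0.75 ± 0.22 (SE, adjusted p = 0.0088) and 0.83 ± 0.26 (SE, adjusted p = 0.013), and by 1.25 (adjusted p = 0.0054), 0.996 (adjusted p = 0.028) and 1.08 (adjusted p = 0.027) with Sham 1 and 6. With the name letter as a covariate the RM and HS calls were lost (0.47, adjusted p = 0.18, and 0.49, adjusted p = 0.069) and the RM-HS call was not (0.83, adjusted p = 0.0049).

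Cyp4f18, a leukotriene hydroxylase of neutrophils, had lowest, median and highest values of 0, 4.37 and 28.4 in Sham and 17.7, 49.5 and 63.3 in RM, 18.3, 5.67, 3.61, 13.7 and 28.8 in HS and 45.7, 24.4 and 31.4 in RM-HS. Sham 2 was the 1 control that overlapped with RM and RM-HS. The rise was 2.96 ± 0.63 (SE, adjusted p = 0.00061) in RM and 2.67 ± 0.78 (SE, adjusted p = 0.0092) in RM-HS, and 2.97 (adjusted p = 0.0029) and 2.67 (adjusted p = 0.014) with Sham 1 and 6; with a pseudocount of 8 the sizes were 1.83 and 1.56, both called. Neutrophil and myeloid markers were followed beside it. Of 8 tested, 5 rose in RM, 2 rose and 1 fell in HS, and 6 rose and 1 fell in RM-HS. Against Sham 1 and 6 it was 5 rises in RM, 3 in HS, and 6 rises and 1 fall in RM-HS. The shares of all rows called were 53%, 46.4% and 42.3% in RM, HS and RM-HS, and 32.9%, 25.7% and 27.2% with Sham 1 and 6. Cxcr2, a chemokine receptor of neutrophils, was at 4.71 to 34.4 in Sham, 53.3 to 127 in RM, 14.4 to 50.5 in HS and 65.2 to 128 in RM-HS. The summed level of the 8 markers, none at 0 in every library, was 34578 to 72139 in Sham, 39218 to 62004 in RM, 25732 to 43576 in HS and 47972 to 53322 in RM-HS. RM and RM-HS thus lay within the Sham range in the sum, of which Cxcr2 was a small part. The part of these markers in the Cyp4f18 values was not tested.

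Cyp4f1, an arachidonate and leukotriene hydroxylase, changed little in size. It was at 6518 to 8721 with a median of 6964 in Sham, 7425 to 11026 with a median of 9526 in RM, 7373, 5972, 5766, 6174 and 6780.5 in HS and 11658, 8231 and 9636 in RM-HS. It rose by 0.37 ± 0.10 (SE, adjusted p = 0.005) in RM and 0.44 ± 0.13 (SE, adjusted p = 0.0078) in RM-HS, calls that were lost with upper quartile scaling and with Sham 1 and 6, at 0.30 (adjusted p = 0.16) and 0.37 (adjusted p = 0.13). The RM-HS call was also lost without RM-HS 1 (log2 fold change 0.31, adjusted p = 0.0857). Between injury groups it was higher in RM than in HS by 0.54 ± 0.11 (SE, adjusted p = 0.0012), without overlap, and higher in RM-HS than in HS by 0.61 ± 0.13 (SE, adjusted p = 0.003). Cyp4f17, another 4F enzyme, was at 159 to 446 with a median of 308 in Sham, 96.5 to 234 with a median of 131 in RM, 128, 81.6, 208, 149 and 114 in HS and 136, 150.1 and 129.7 in RM-HS. It fell by 1.09, 1.18 and 1.09 (adjusted p = 0.0016, 0.0016 and 0.01, limma) with values of -0.50, -0.58 and -0.49 against Sham 1 and 6 (adjusted p = 0.28, 0.23 and 0.36). Cyp4f6 was at 1090.4 to 1995 with a median of 1376 in Sham, 1145 to 1533 with a median of 1303 in RM, 1141, 1073, 954, 963 and 1186 in HS and 1463, 1335 and 1471 in RM-HS. It fell in HS by 0.40 ± 0.12 (SE, adjusted p = 0.0085), with -0.48 (adjusted p = 0.057) against Sham 1 and 6. Cyp4f40 was at 0 in all 6 Sham libraries and at 0 to 21.8 with a median of 5.47 in RM, 9.97, 0, 8.12, 17.6 and 0 in HS and 22.9, 0 and 4.28 in RM-HS, each group with at least 1 library at 0. Cyp4f40 reached 10 in RM 2, HS 4 and RM-HS 1 alone, so it passed the filter through the injury groups, and its differences follow in part from that. The means were at least 14.6-fold, 14.0-fold and 17.8-fold higher than the level of 3 reads over the Sham group. It was called in RM alone (adjusted p = 0.026), not with Sham 1 and 6 (adjusted p = 0.18), not with a pseudocount of 8 (adjusted p = 0.064) and not without any 1 of RM 2, RM 3 and RM 6 (log2 fold change 2.10 to 2.38, adjusted p 0.0508 to 0.0705).

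The 4A enzymes, known targets of the receptor Ppara, did not move as 1 group. Cyp4a1 was at 2808, 507, 802, 1340.4, 543 and 4209 in Sham 1 to 6, 2549 to 3468 with a median of 2759 in RM, 5151, 2917, 2563, 3419 and 6949 in HS and 4129.9, 3378 and 5119 in RM-HS. Sham 1 and 6 lay within the range of the injured libraries and Sham 2 to 5 below it. It rose by 1.19 ± 0.40 (SE, adjusted p = 0.018), 1.67 ± 0.42 (SE, adjusted p = 0.0031) and 1.75 ± 0.49 (SE, adjusted p = 0.0076) against 6 Sham libraries, and differed by -0.29, 0.19 and 0.27 from Sham 1 and 6, none called (adjusted p = 0.46, 0.68 and 0.56). The RM call was lost with edgeR and DESeq2 and without either Sham 2 or Sham 5 (log2 fold change 0.94 to 0.96, adjusted p 0.0504 to 0.0514). Cyp4a2 took most of the members' reads, with a mean of 60.0% in Sham, 54.5% in RM, 60.7% in HS and 62.0% in RM-HS. Its values were 465110.0, 290466 and 381711 in RM-HS and 183125 to 364374 with a median of 240465 in Sham, and it rose in RM-HS by 0.59 ± 0.20 (SE, adjusted p = 0.022). That call was lost with Sham 1 and 6, at 0.31 (adjusted p = 0.37), with upper quartile scaling and without either RM-HS 1 or RM-HS 3 (log2 fold change 0.43 to 0.57, adjusted p 0.0671 to 0.154). Cyp4a3, at 34477 to 78374 with a median of 37266 in Sham, 30815 to 159036 with a median of 59586 in RM, 48666, 101683, 109687, 43026 and 61050.0 in HS and 63104, 41829 and 53489 in RM-HS, varied most within RM, between RM 4 and RM 2, and was called in no comparison. Cyp4a8 was at 31942 to 62670.4 with a median of 40934 in Sham, 34512 to 53390.0 with a median of 38060.4 in RM, 59567, 46405, 51725, 48512 and 52603 in HS and 40652, 37889.9 and 37689 in RM-HS. It was called in none with all 6 Sham libraries and was higher in HS than in Sham 1 and 6 by 0.52 (adjusted p = 0.023), where the value with 6 was 0.21 (adjusted p = 0.25).

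The promoter windows of Cyp4a2 and Cyp4a3 aligned over 298 columns with 284 identical bases (95.3%). The identity of their transcripts, and how reads were divided between them, was not tested. Both hold AGGTCA, a core sequence that nuclear receptors such as Ppara bind, at the same distance of -105 from the start (capitals).
Cyp4a2 (GRCr8 chr5:134170859-134171158, minus strand): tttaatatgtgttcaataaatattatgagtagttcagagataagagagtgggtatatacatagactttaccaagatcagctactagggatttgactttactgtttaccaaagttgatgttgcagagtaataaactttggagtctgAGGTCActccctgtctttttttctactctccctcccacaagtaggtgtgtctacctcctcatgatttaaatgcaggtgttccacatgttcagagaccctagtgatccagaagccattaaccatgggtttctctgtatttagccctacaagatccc
Cyp4a3 (GRCr8 chr5:134352187-134352486, minus strand): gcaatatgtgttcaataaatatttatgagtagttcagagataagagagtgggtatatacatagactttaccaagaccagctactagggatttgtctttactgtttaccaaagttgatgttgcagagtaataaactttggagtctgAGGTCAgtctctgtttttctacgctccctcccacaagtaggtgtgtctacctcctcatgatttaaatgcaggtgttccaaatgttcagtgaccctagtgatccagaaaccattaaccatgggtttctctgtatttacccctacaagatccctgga

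Among other Ppara targets 1 of 10 rose and 3 fell in RM, 3 rose and 1 fell in HS, and 3 rose and 2 fell in RM-HS. None rose against Sham 1 and 6, and 3 fell in RM, 0 in HS and 2 in RM-HS. All tested rows were called at 53% in RM, 46.4% in HS and 42.3% in RM-HS. With Sham 1 and 6 the shares were 32.9%, 25.7% and 27.2%. Ppara itself was at 206 to 1015 in Sham, 500.0 to 952 in RM and 353 to 785 in HS.

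Of the 2C and 2J members, 4 of 7 rose and 2 fell in RM, 2 rose and 2 fell in HS, and 2 rose and 1 fell in RM-HS. The share of all tested rows called was 53% in RM, 46.4% in HS and 42.3% in RM-HS. The list medians were 1.21, -0.05 and -0.40 log2 units. Against Sham 1 and 6, 2 rose and 1 fell in RM, 1 rose in HS and 2 rose in RM-HS, beside 32.9%, 25.7% and 27.2% of all rows called. The list medians were then 0.77, -0.12 and 0.35, with the sign turned in RM-HS. Cyp2c11, the male-specific 2C enzyme of rat liver, rose in RM. Its lowest, median and highest values were 237, 467 and 1250.2 in Sham and 519, 3210.3 and 5872 in RM. In HS it was at 1384, 678, 425, 167 and 384, and in RM-HS at 1049.6, 226 and 227. RM 2, 4, 5 and 6 lay above every library of the other groups, and RM 1 and RM 3 within the Sham range. It rose in RM by 2.20 ± 0.61 (SE, adjusted p = 0.0052), by 2.95 (adjusted p = 0.014) with Sham 1 and 6, and by 2.26 ± 0.64 (SE, adjusted p = 0.015) against HS, a call lost without HS 4 (log2 fold change 1.88, adjusted p = 0.0529). Cyp2c24, its neighbour on chromosome 1, was at 452 to 2605 with a median of 802 in Sham and 899 to 4824 with a median of 2183 in RM, where RM 5 and RM 6 alone exceeded every library of the other groups. It rose by 1.24 ± 0.50 (SE, adjusted p = 0.044) in RM, and by 2.00 (adjusted p = 0.025) with Sham 1 and 6. The 6-Sham call was lost with edgeR, DESeq2 and upper quartile scaling and without any 1 of Sham 1, Sham 3, Sham 5, Sham 6, RM 2, RM 4, RM 5, RM 6 and HS 5 (log2 fold change 1.02 to 1.31, adjusted p 0.0504 to 0.107). Of 9 liver markers, 4 rose in RM and 3 in HS and in RM-HS. Against Sham 1 and 6 it was 4, 2 and 2. Over all rows 53%, 46.4% and 42.3% were called (26.2%, 23.3% and 21.3% higher). With Sham 1 and 6 this was 32.9%, 25.7% and 27.2% (18%, 14.6% and 15% higher). Alb, the most abundant liver transcript, was at 0 to 215 over all libraries. The summed level of the 9, none at 0 in every library, was 2436 to 11889 in Sham, 4005 to 19039 in RM, 8099 to 26356 in HS and 9522 to 16372 in RM-HS. Alb was a small part of that sum. The part of these markers in the Cyp2c11 and Cyp2c24 values was not tested.

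Cyp2c23, the main arachidonic acid epoxygenase of rat kidney, was at 29601, 11649, 8319.8, 12921, 16331 and 45287 in Sham 1 to 6. It was at 30757 to 54701 with a median of 38761 in RM, 38602, 34314, 25861, 37093 and 33802 in HS and 76289, 48032 and 75868 in RM-HS. All 3 RM-HS libraries lay above every Sham and every HS library, and Sham 6 was above 4 of the 6 RM libraries. The rise was 1.21 ± 0.29 (SE, adjusted p = 0.0019) in RM, 0.95 ± 0.31 (SE, adjusted p = 0.016) in HS and 1.91 ± 0.36 (SE, adjusted p = 0.00032) in RM-HS. Set against Sham 1 and 6 alone it was 0.13 (adjusted p = 0.69), -0.12 (adjusted p = 0.73) and 0.83 (adjusted p = 0.023), so that of the 3 RM-HS alone kept its call, and its size dropped from 1.91 to 0.83. With all 6 Sham libraries the HS call was also lost with edgeR (0.75, adjusted p = 0.061) and DESeq2 (0.72, adjusted p = 0.092). Cyp2c22, which reached 10 in no Sham library, was low, at 0 to 6.88 in Sham, 1.01 to 25.5 with a median of 11.4 in RM, 60.7, 20.4, 9.02, 13.7 and 32.0 in HS and 8.71, 34.9 and 22.8 in RM-HS. It rose by 3.23 ± 0.76 (SE, adjusted p = 0.0017) in HS and 3.04 ± 0.89 (SE, adjusted p = 0.0094) in RM-HS, without overlap, and was called there with Sham 1 and 6 too (adjusted p = 0.028 and 0.04999); with a pseudocount of 8 these sizes were 1.60 and 1.45. Cyp2c22 passed the filter through the injury groups alone, so these differences follow in part from that. The RM-HS call was lost without RM-HS 2 (log2 fold change 2.63, adjusted p = 0.052). The RM rise of 1.77 ± 0.72 (SE, adjusted p = 0.046) was lost with Sham 1 and 6 (adjusted p = 0.18) and with edgeR. It was lost too with a pseudocount of 8 (0.73, adjusted p = 0.10) and with upper quartile scaling (adjusted p = 0.056). The same held without any 1 of Sham 1, Sham 3, Sham 5, RM 1, RM 4, RM 5, RM 6, HS 2, HS 4, HS 5 and RM-HS 3 (log2 fold change 1.44 to 1.77, adjusted p 0.0516 to 0.114).

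The 2J epoxygenases fell where they changed. Cyp2j4 was at 464 to 674 with a median of 501 in Sham, 302 to 376 with a median of 351 in RM, 503, 230.2, 372, 378 and 301 in HS and 364, 314 and 294 in RM-HS, with HS 1 the 1 injured library inside the Sham range. It fell by 0.65 ± 0.15 (SE, adjusted p = 0.0012), 0.63 ± 0.16 (SE, adjusted p = 0.0027) and 0.73 ± 0.18 (SE, adjusted p = 0.0035), with -0.48, -0.46 and -0.56 against Sham 1 and 6, none of them called (adjusted p = 0.095, 0.13 and 0.092). Cyp2j10 was at 64.6 to 138 with a median of 115 in Sham, 26.6 to 75.9 with a median of 52.4 in RM, 112, 126, 56.8, 64.6 and 38.4 in HS and 55.5, 73.3 and 72.7 in RM-HS, with overlap between all groups. It fell in RM by 1.21 ± 0.31 (SE, adjusted p = 0.003) and, with Sham 1 and 6, by 1.46 (adjusted p = 0.023). Cyp2j3 was at 85.7 to 194 with a median of 122 in Sham, 96.6 to 229.8 with a median of 158 in RM, 96.4, 68.0, 43.3, 115 and 78.5 in HS and 71.9, 75.6 and 111 in RM-HS. It fell in HS by 0.72 ± 0.28 (SE, adjusted p = 0.039), which was lost with Sham 1 and 6 (adjusted p = 0.62) and without any 1 of Sham 2, Sham 3, Sham 5, HS 2, HS 3 and HS 5 (log2 fold change -0.73 to -0.52, adjusted p 0.0584 to 0.131), and it was higher in RM than in HS by 1.03 ± 0.28 (SE, adjusted p = 0.01). Of the epoxide hydrolases that act on the products, Ephx1 rose by 2.14 in RM, 0.82 in HS and 1.44 in RM-HS (adjusted p = 1.1e-07, 0.0046 and 0.00018), with HS lost against Sham 1 and 6 (0.51, adjusted p = 0.24). Ephx2, the soluble enzyme, was at 364, 247, 252 and 415 in Sham 2, RM 4, RM 6 and HS 5, and at 2254 or more in the other 16 libraries.

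**Figure D4:**
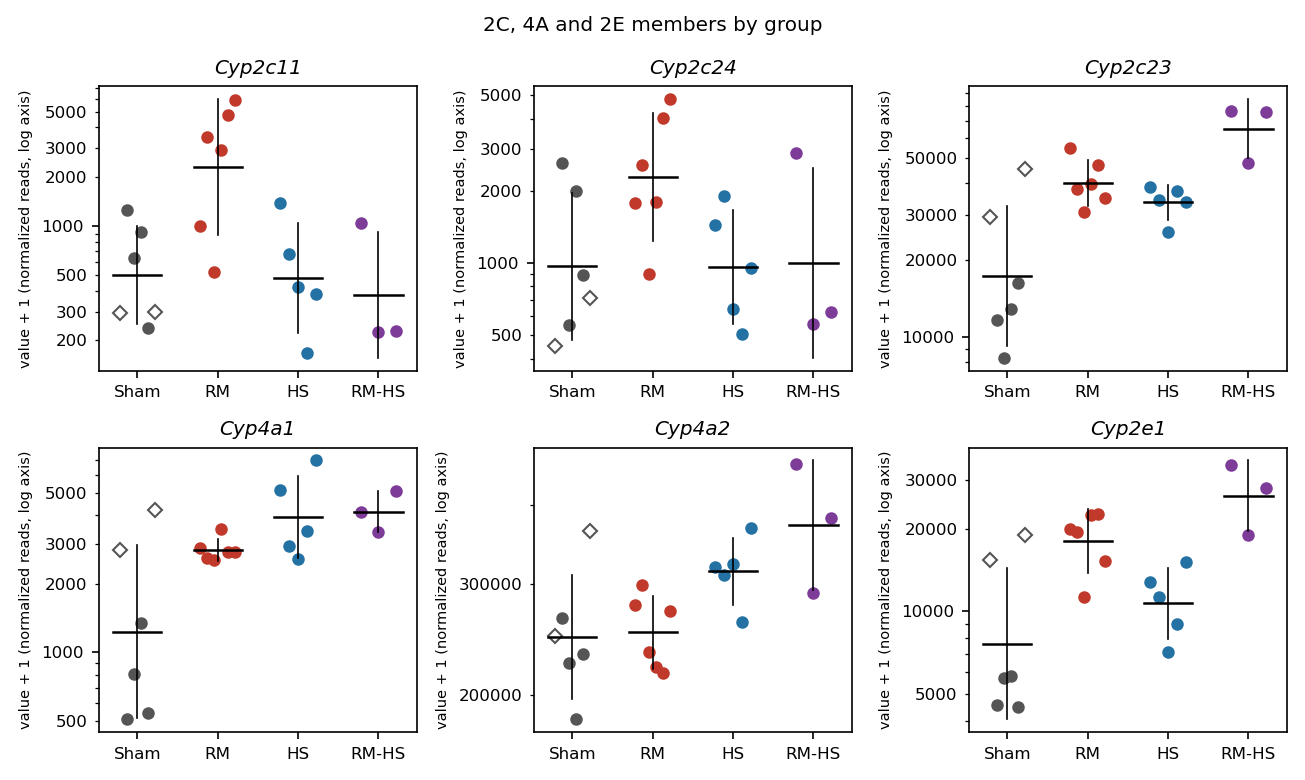
Value + 1 (normalized reads, log axis) of 3 2C members, 2 4A members and Cyp2e1 by group, 1 symbol per library, with open diamonds for Sham 1 and Sham 6; bars are the mean and lines ± 1 SD, both on the log scale. The 2 diamonds lie above the other 4 Sham libraries for Cyp2c23, Cyp4a1 and Cyp2e1, and below at least 3 of them for Cyp2c11.

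Of 10 other members of the 2 family, 2 rose and 4 fell in RM, 2 rose and 5 fell in HS, and 2 rose in RM-HS. Against Sham 1 and 6, 1 rose and none fell in each group. All tested rows were called at 53%, 46.4% and 42.3% in RM, HS and RM-HS, and at 32.9%, 25.7% and 27.2% with Sham 1 and 6. The 5 2D enzymes, which metabolise many drugs, sit in 1 cluster (rn6 chr7:123598298-123655896), and all 5 fell in HS. Cyp2d1 was at 4462, 15393, 7503, 10257, 11051 and 7301 in Sham 1 to 6, 4777 to 6287 with a median of 5924 in RM, 6307, 4749, 5246, 4531 and 4744 in HS and 7310.3, 6574 and 5870.4 in RM-HS. Sham 1 was the lowest of all 20 libraries and Sham 2 the highest. Cyp2d3, with the largest fall of the 5 in HS, was at 143 to 542 with a median of 325 in Sham, 140.2 to 242 with a median of 186 in RM, 161, 139, 144, 145 and 194 in HS and 194.9, 284 and 219 in RM-HS. The HS falls were 0.77 for Cyp2d1, 0.46 for Cyp2d2, 0.99 for Cyp2d3, 0.74 for Cyp2d4 and 0.77 for Cyp2d5 (limma, adjusted p = 0.0015 to 0.0056). In RM 4 fell, by 0.51 to 0.73, and in RM-HS none was called. None was called in any group with Sham 1 and 6 as controls, and the HS values were -0.48 to -0.15. The promoter windows of Cyp2d5 and Cyp2d3 matched at 96.2% of 261 aligned columns, those of Cyp2d1 and Cyp2d5 at 93.2% of 264, and those of Cyp2d1 and Cyp2d3 at 90.5% of 296. The identity of the transcripts, and how reads were divided between these neighbours, was not tested. Each window holds the TATA box letters TATAAA once, on the opposite strand, so that the printed strand reads TTTATA (capitals).
Cyp2d1 (GRCr8 chr7:115793381-115793680, minus strand): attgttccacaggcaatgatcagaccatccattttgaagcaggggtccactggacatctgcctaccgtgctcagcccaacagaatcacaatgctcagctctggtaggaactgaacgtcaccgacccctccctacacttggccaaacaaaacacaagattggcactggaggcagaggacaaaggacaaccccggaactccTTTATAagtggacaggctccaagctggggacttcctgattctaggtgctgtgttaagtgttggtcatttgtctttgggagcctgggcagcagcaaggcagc
Cyp2d5 (GRCr8 chr7:115784438-115784737, minus strand): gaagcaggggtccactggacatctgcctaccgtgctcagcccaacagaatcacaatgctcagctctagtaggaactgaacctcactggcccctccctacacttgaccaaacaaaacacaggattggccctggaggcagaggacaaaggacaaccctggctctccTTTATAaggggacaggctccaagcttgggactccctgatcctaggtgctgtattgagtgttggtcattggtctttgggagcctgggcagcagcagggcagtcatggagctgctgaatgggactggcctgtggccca
Cyp2d3 (GRCr8 chr7:115802093-115802392, minus strand): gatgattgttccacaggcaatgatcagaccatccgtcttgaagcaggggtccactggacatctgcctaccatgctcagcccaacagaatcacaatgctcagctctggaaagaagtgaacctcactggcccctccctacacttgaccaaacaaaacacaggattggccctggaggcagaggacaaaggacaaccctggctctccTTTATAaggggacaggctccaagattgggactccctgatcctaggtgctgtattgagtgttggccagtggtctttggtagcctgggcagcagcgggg

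Cyp2e1, the ethanol-oxidising enzyme, had the opposite order among controls, with Sham 1 and 6 the highest. It was at 15351, 4568, 5715, 5831, 4474 and 18936 in Sham 1 to 6, 11314 to 22690.2 with a median of 19724 in RM, 12846, 11315, 7120.0, 9018 and 15205 in HS and 34129, 19039 and 28156 in RM-HS. It rose by 1.24 ± 0.32 (SE, adjusted p = 0.0029) in RM and 1.79 ± 0.39 (SE, adjusted p = 0.0012) in RM-HS, with 0.08 (adjusted p = 0.85) and 0.63 (adjusted p = 0.15) against Sham 1 and 6. Between injury groups RM-HS was above HS by 1.30 ± 0.40 (SE, adjusted p = 0.029), lost without any 1 of HS 3, HS 4, RM-HS 1 and RM-HS 3 (log2 fold change 1.11 to 1.25, adjusted p 0.0571 to 0.118). Cyp2f4, a naphthalene-oxidising enzyme best known from lung, was at 12.9 to 126 with a median of 41.1 in Sham, 30.4 to 99.9 with a median of 62.7 in RM, 148, 117.9, 48.7, 106 and 118.5 in HS and 56.6, 76.8 and 159.6 in RM-HS. It rose in HS by 1.41 ± 0.51 (SE, adjusted p = 0.03). The value was 0.05 with Sham 1 and 6 (adjusted p = 0.95), and the call was lost with edgeR and DESeq2 and without any 1 of Sham 2, Sham 3, Sham 5, HS 1, HS 2, HS 4 and HS 5 (log2 fold change 1.11 to 1.39, adjusted p 0.0531 to 0.0763).

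All 4 enzymes of vitamin D metabolism were members. Cyp27b1 makes the active hormone in the proximal tubule, and Cyp24a1 breaks it down. Cyp27b1 was at 120.1, 21.5, 7.63, 16.5, 17.2 and 166 in Sham 1 to 6, so Sham 1 and 6 again stood above the other 4. Its HS values were 387, 132, 334, 223 and 1010.3, its RM values 74.1 to 183 with a median of 116 and its RM-HS values 157, 116 and 135. It rose by 1.90 ± 0.59 (SE, adjusted p = 0.011) in RM, 3.33 ± 0.62 (SE, adjusted p = 0.00023) in HS and 2.05 ± 0.73 (SE, adjusted p = 0.028) in RM-HS against 6 Sham libraries. Against Sham 1 and 6 it differed by -0.22 (adjusted p = 0.77), 1.21 (adjusted p = 0.1) and -0.06 (adjusted p = 0.95), and the sign turned in RM and RM-HS. The RM and RM-HS calls were lost with edgeR and DESeq2, and the RM-HS call without any 1 of Sham 3, Sham 4, Sham 5, RM-HS 1, RM-HS 2 and RM-HS 3 (log2 fold change 1.67 to 2.16, adjusted p 0.0531 to 0.0913). Its promoter holds TATAAA once on the opposite strand, -49 from the start (TTTATA in capitals).
Cyp27b1 (GRCr8 chr7:64756376-64756675, plus strand): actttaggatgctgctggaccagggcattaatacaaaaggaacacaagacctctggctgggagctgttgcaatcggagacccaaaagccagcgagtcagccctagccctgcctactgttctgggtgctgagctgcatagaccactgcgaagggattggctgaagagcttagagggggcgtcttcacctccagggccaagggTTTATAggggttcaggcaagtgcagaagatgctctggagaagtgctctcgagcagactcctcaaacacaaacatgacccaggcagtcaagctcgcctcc

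Cyp24a1 separated RM from HS. The HS values were 1501, 1112, 1241, 838 and 2267, and the lowest, median and highest RM values 77.8, 281 and 453, so no RM library reached the lowest HS. The difference, RM minus HS, was -2.53 ± 0.57 (SE, adjusted p = 0.0029). The RM-HS values were 922, 659 and 1026, above every RM library. Sham 1 and 6 were at 1026 and 1959, and Sham 2 to 5 at 173, 518, 140.0 and 666. RM against 6 Sham libraries missed the threshold (-1.16 ± 0.54, SE, adjusted p = 0.079), was called by edgeR (-1.44, adjusted p = 0.026), by DESeq2 (-1.45, adjusted p = 0.018) and with upper quartile scaling (-1.30, adjusted p = 0.047), and with Sham 1 and 6 was -2.64 (adjusted p = 0.0017). It was also called without Sham 2 (-1.47, adjusted p = 0.027) or without Sham 4 (-1.53, adjusted p = 0.018). Cyp27a1, a mitochondrial sterol side-chain hydroxylase that also acts on vitamin D, was at 411 to 889 with a median of 507 in Sham, 148 to 418 with a median of 218 in RM, 258, 249.4, 155, 259.5 and 251 in HS and 185, 355 and 244 in RM-HS, with RM 1 the 1 injured library inside the Sham range. It fell by 1.30 ± 0.25 (SE, adjusted p = 0.0002), 1.30 ± 0.26 (SE, adjusted p = 0.0004) and 1.17 ± 0.30 (SE, adjusted p = 0.004), with -0.94, -0.94 and -0.82 against Sham 1 and 6, where RM alone passed (adjusted p = 0.041, 0.053 and 0.12). Cyp2r1, the microsomal enzyme of the first step, was at 62.5 to 254 with a median of 108 in Sham, 136 to 241 with a median of 179 in RM, 152, 121, 64.9, 119 and 176 in HS and 94.7, 105 and 208 in RM-HS. It was called in no group with 6 Sham libraries. Against Sham 1 and 6 alone it was lower in HS, at -1.03 (adjusted p = 0.044). Of 11 partners in vitamin D and mineral handling 5 rose in RM, 7 in HS and 6 in RM-HS, and none fell. Against Sham 1 and 6 the counts were 3 rises and 2 falls in RM, 2 and 1 in HS and 5 and 1 in RM-HS. Of all rows 53%, 46.4% and 42.3% were called in these groups (26.2%, 23.3% and 21.3% higher). With Sham 1 and 6 it was 32.9%, 25.7% and 27.2%. The receptor Vdr rose in HS by 0.72 ± 0.19 (SE, adjusted p = 0.0037), with 0.49 (adjusted p = 0.17) against Sham 1 and 6.

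**Figure D5:**
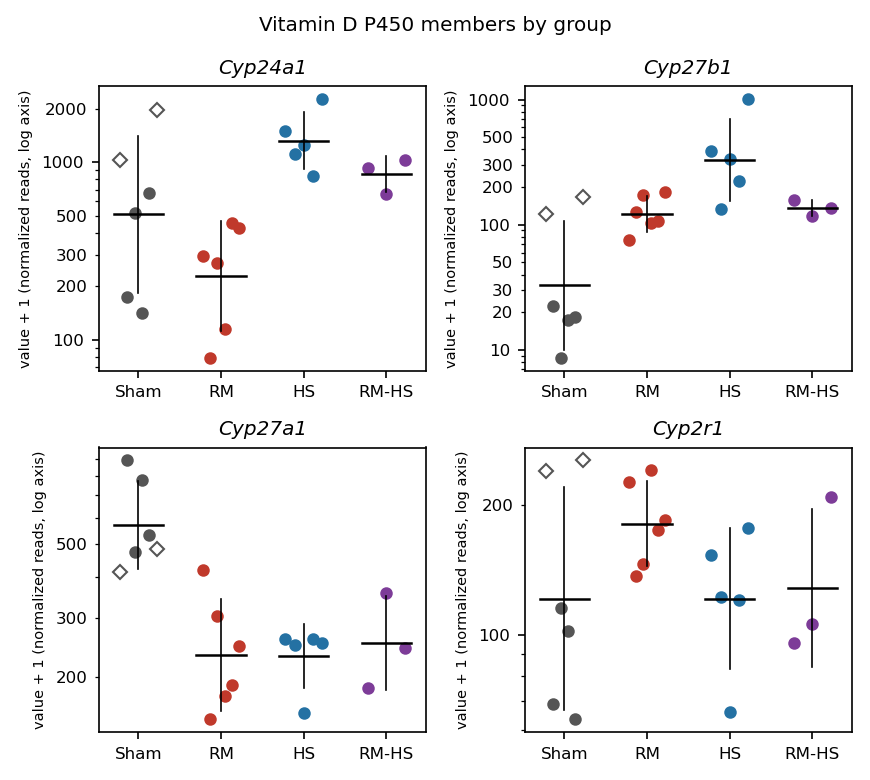
Value + 1 (normalized reads, log axis) of the 4 vitamin D members by group, 1 symbol per library, with open diamonds for Sham 1 and Sham 6; bars are the mean and lines ± 1 SD, both on the log scale. RM lies wholly below HS for Cyp24a1, and the 2 diamonds lie above the other 4 Sham libraries for Cyp24a1, Cyp27b1 and Cyp2r1.

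The enzymes that clear retinoic acid were Cyp26a1, called in no comparison, and Cyp26b1. Cyp26b1 was at 18.9 to 88.1 with a median of 33.6 in Sham, 130.4, 91.8, 305, 199.8 and 150.5 in HS and 139, 97.8 and 109.7 in RM-HS, and at 32.8 to 112 with a median of 83.8 in RM. It rose by 2.14 ± 0.40 (SE, adjusted p = 0.00024) in HS and 1.65 ± 0.47 (SE, adjusted p = 0.0081) in RM-HS, without overlap. The values with Sham 1 and 6 were 1.23 (adjusted p = 0.074) and 0.73 (adjusted p = 0.32). RM lay below HS, with a difference of -1.24 ± 0.40 (SE, adjusted p = 0.03), a call lost without any 1 of RM 1, RM 3, HS 3 and HS 4 (log2 fold change -1.16 to -1.01, adjusted p 0.0669 to 0.0888).

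Another 3 members act on oxysterols and bile acids. Cyp39a1, an oxysterol hydroxylase, had lowest, median and highest values of 267, 436 and 889 in Sham and 228, 435 and 692 in RM. It was at 214, 252, 174, 149.8 and 226 in HS and 138, 204 and 141 in RM-HS, below every Sham library and, in RM-HS, below every RM library. It fell by 1.25 ± 0.27 (SE, adjusted p = 0.00085) in HS and 1.58 ± 0.31 (SE, adjusted p = 0.00052) in RM-HS, with -0.78 (adjusted p = 0.092) and -1.11 (adjusted p = 0.031) against Sham 1 and 6. It was higher in RM than in HS by 1.05 ± 0.27 (SE, adjusted p = 0.0076). Cyp8b1, which sets the share of cholic acid in bile, had Sham values of 65.1 to 291 with a median of 108 and HS values of 56.5, 60.1, 52.3, 27.4 and 33.6, all below the lowest Sham. It fell in HS by 1.51 ± 0.35 (SE, adjusted p = 0.0014) and in RM by 0.96 ± 0.33 (SE, adjusted p = 0.019), with -1.33 (adjusted p = 0.043) and -0.79 (adjusted p = 0.19) against Sham 1 and 6. The RM call was lost without Sham 5 (log2 fold change -0.73, adjusted p = 0.0568). Cyp7b1, which adds a hydroxyl to oxysterols and some steroids, was at 251 to 521 with a median of 454 in Sham, 285 to 1782 with a median of 829.5 in RM, 1188, 596, 448, 409 and 525 in HS and 1386, 386 and 851 in RM-HS. It rose in RM by 1.03 ± 0.37 (SE, adjusted p = 0.025), with RM 1 at 285 and the other 5 RM libraries at 682 or more. That call was lost with Sham 1 and 6, at 1.13 (adjusted p = 0.13), and without any 1 of Sham 5, Sham 6, RM 2 and RM 3 (log2 fold change 0.81 to 0.96, adjusted p 0.0501 to 0.0727).

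A further 3 members belong to steroid hormone synthesis, and they fell where they changed. Cyp21a1, the steroid ring hydroxylase of the adrenal cortex, was at 41.1 to 175 with a median of 82.1 in Sham, 14.9 to 45.5 with a median of 25.0 in RM, 46.5, 23.8, 22.5, 27.4 and 24.0 in HS and 21.8, 43.1 and 39.9 in RM-HS, with overlap in each case. It fell by 1.68, 1.54 and 1.28 (limma, adjusted p = 0.00069, 0.0025 and 0.025), with -0.99, -0.85 and -0.59 against Sham 1 and 6, none called (adjusted p = 0.13, 0.22 and 0.44). The RM-HS call was lost without either Sham 2 or RM-HS 1 (log2 fold change -1.07 to -0.98, adjusted p 0.0543 to 0.149). Cyp17a1, of androgen synthesis, was at 8.60 to 98.2 with a median of 67.6 in Sham, 6.23 to 45.5 with a median of 15.8 in RM, 44.9, 26.1, 35.2, 33.3 and 35.2 in HS and 14.2, 19.8 and 21.4 in RM-HS. It fell in RM by 1.53 ± 0.54 (SE, adjusted p = 0.022) with -1.85 (adjusted p = 0.037) against Sham 1 and 6. The first of these was lost without any 1 of Sham 1, Sham 3, Sham 5, RM 2, RM 4 and RM 6 (log2 fold change -1.38 to -1.28, adjusted p 0.0515 to 0.0591). Cyp11a1, which starts steroid synthesis from cholesterol, was at 3.04 to 46.3 with a median of 13.4 in Sham and 2.49, 2.27, 0.902, 0.979 and 0 in HS, without overlap. It reached 10 in 4 Sham libraries and in no other, so it too passed the filter through Sham alone. It fell in HS by 2.83 ± 0.75 (SE, adjusted p = 0.0042). It fell in RM by 1.78 ± 0.71 (SE, adjusted p = 0.042), a call lost with edgeR and without any 1 of Sham 2, Sham 3, Sham 4, Sham 6, RM 1, RM 4 and RM 6 (log2 fold change -1.86 to -1.35, adjusted p 0.0521 to 0.106). Its values against Sham 1 and 6 were -2.70 (adjusted p = 0.097) and -1.65 (adjusted p = 0.28). Adrenal markers stood beside these as follows. Star, the cholesterol carrier of steroid-making cells, was at 1.91 to 42.2, the corticotropin receptor Mc2r at 0 to 34.4 and the factor Nr5a1 at 0 to 17.1 over all libraries. Cyp11b2 and the row shared by Cyp11b3 and Cyp11b1 did not pass the filter. All tested rows were called at 53% in RM, 46.4% in HS and 42.3% in RM-HS, and at 32.9%, 25.7% and 27.2% with Sham 1 and 6. Of 6 adrenal markers 1 rose in RM, 1 rose and 1 fell in HS, and 2 rose in RM-HS. Against Sham 1 and 6, 1 of these markers rose in RM, none in HS and 1 in RM-HS. Their summed level was 832 to 2322 in Sham, 1605 to 3444 in RM, 664 to 1485 in HS and 1459 to 1936 in RM-HS, and its part in these values was not tested. Most of that sum came from listed genes other than Star, Mc2r and Nr5a1.

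Direct comparisons of the injury groups gave fewer calls. RM against HS had 9 members (6 higher, 3 lower), beside 23.8% of all rows (11.1% and 12.6%): Cyp1a1, Cyp1b1, Cyp2c11, Cyp2j3, Cyp39a1 and Cyp4f1 were higher in RM, and Cyp3a9, Cyp24a1 and Cyp26b1 lower. Of these Cyp3a9, Cyp24a1 and Cyp4f1 did not overlap, where 14.2% of all rows did not. The Cyp1b1 difference of 1.54 ± 0.50 (SE, adjusted p = 0.029) was lost without any 1 of RM 3, RM 4, HS 1, HS 4 and HS 5 (log2 fold change 1.25 to 1.53, adjusted p 0.0503 to 0.0908). RM-HS against HS had 5 (Cyp2e1, Cyp2s1, Cyp4f1, Cyp4f6 and Cyp2d2, all higher in RM-HS), beside 20.6% of all rows (10% higher); 10 members did not overlap, where 24.9% of all rows did not. The count was 2 without HS 3, HS 4, RM-HS 1 or RM-HS 3. Cyp4f6 (0.42 ± 0.14, SE, adjusted p = 0.04) was lost without any 1 of HS 2, HS 3, HS 4, RM-HS 1, RM-HS 2 and RM-HS 3 (log2 fold change 0.39 to 0.47, adjusted p 0.0605 to 0.121), and Cyp2d2 (0.42 ± 0.14, SE, adjusted p = 0.04) without any 1 of HS 2, HS 3, HS 4, RM-HS 1, RM-HS 2 and RM-HS 3 (log2 fold change 0.36 to 0.43, adjusted p 0.0682 to 0.101). RM-HS against RM had 1, Cyp39a1, with a difference of -1.39 ± 0.31 (SE, adjusted p = 0.039), beside 1.08% of all rows (0.689% lower). It was lost without any 1 of RM 2, RM 3, RM 5, RM 6, RM-HS 1 and RM-HS 3 (log2 fold change -1.38 to -1.24, adjusted p 0.0656 to 0.157). In that comparison 4 members did not overlap, where 7.76% of all rows did not.

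Genes that serve or regulate P450s were followed beside the members. For the counts below, 53% of all tested rows were called in RM, 46.4% in HS and 42.3% in RM-HS. With Sham 1 and 6 as controls these shares were 32.9%, 25.7% and 27.2%. Of 9 tested redox partners 3 rose and 2 fell in RM, 1 rose and 2 fell in HS, and 3 rose in RM-HS; against Sham 1 and 6 it was 1 and 1, 0 and 2, and 1 and 1. Por, the shared reductase, rose by 0.82 ± 0.18 (SE, adjusted p = 0.00089) in RM and 0.68 ± 0.22 (SE, adjusted p = 0.019) in RM-HS, with 0.51 (adjusted p = 0.095) and 0.37 (adjusted p = 0.29) against Sham 1 and 6. The RM-HS call of Por was lost with upper quartile scaling, without RM-HS 1 (adjusted p = 0.055) and without RM-HS 3 (adjusted p = 0.058). Fdx1, the mitochondrial ferredoxin, rose by 0.46 ± 0.08 (SE, adjusted p = 4.9e-05) in RM and 0.62 ± 0.09 (SE, adjusted p = 3.8e-05) in RM-HS and was called with both sets of controls. Of 9 genes of haem synthesis none rose, and 7 fell in RM, 6 in HS and 3 in RM-HS; with Sham 1 and 6 it was 5, 4 and 2. Alas1, the rate-limiting first enzyme, was at 3688 to 4006 in Sham, 1652 to 2930.2 in RM, 2879 to 5042 in HS and 2216 to 2579.6 in RM-HS. It fell by 0.84 ± 0.12 (SE, adjusted p = 1.1e-05) in RM and 0.69 ± 0.15 (SE, adjusted p = 0.0011) in RM-HS, with both sets of controls and without overlap. Ppox, a late enzyme of the pathway, fell by 0.52 ± 0.13 (SE, adjusted p = 0.0022) in RM and 0.91 ± 0.14 (SE, adjusted p = 2.5e-05) in HS. Of 18 nuclear receptors and Ahr partners 4 rose and 6 fell in RM, 5 rose and 3 fell in HS, and 3 rose and 4 fell in RM-HS. The counts against Sham 1 and 6 were 0 rises and 2 falls in RM, 1 and 2 in HS and 1 and 2 in RM-HS. Hnf4a, which drives many P450 genes, was at 4192 to 6321 in Sham, 4905 to 7097 in RM, 4561 to 7418 in HS and 3878 to 8114 in RM-HS and was called in none. Cyp51, of cholesterol synthesis, rose by 1.55, 0.43 and 0.87 (adjusted p = 2.3e-09, 0.0055 and 5.4e-05, limma), with HS lost against Sham 1 and 6 (0.45, adjusted p = 0.07).

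In all, 11 members were called in none of the 3 comparisons with 6 Sham libraries: Cyp2t1, Cyp26a1, Cyp2r1, Cyp24a1, Cyp4x1, Cyp4a8, Cyp4a3, Cyp4f5, Cyp4f4, Cyp2b1 and Cyp20a1. Cyp20a1, an enzyme without a known substrate, was steady at 913 to 1399 in all libraries, and Cyp2t1 at 362 to 617. Cyp4f5, a fatty acid hydroxylase, split the libraries within groups. It was at 107 to 179.7 in 7 libraries (Sham 6, RM 2, RM 3, RM 5, RM 6, HS 2 and RM-HS 1) and at 0 to 25.8 in the other 13. Cyp4x1 was at 95.4 in Sham 2, 219 in RM 2 and 93.8 in HS 3, and at 39.3 or less elsewhere. Cyp2b1, with 55 reads over all libraries, reached 10 in 3 libraries (Sham 1, Sham 3 and RM-HS 2) and just passed the filter, as did Cyp1a2 and Cyp4f40. Cyp2c6v1 (highest value 44.5) and Cyp2c7 (21.3) reached 10 in 2 libraries and just failed. Of the 21 symbols that failed, Cyp2b12, Cyp2g1, Cyp2b21, Cyp2b15, Cyp3a62 and Cyp19a1 had no read in any library.

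RefSeq promoter windows (GRCr8, 300 bases) were found for 40 of the 48 members. The printed windows were chosen for the members whose values are described at length, and the motifs with these values known. Over both strands TATAAA stood in 14.2% of all 33469 windows and in 12 of the 40 of members, AGGTCA in 16.2% and 13, GCGTG, the core of the dioxin response element that Ahr binds, in 29.7% and 13, ACGTG in 19.3% and 7, and TGACNNNGC in 12.1% and 5. The motifs can overlap. GCGTG and ACGTG share CGTG, and AGGTCA read on the other strand can share bases with TGACNNNGC, as can the start of GCGTG with its end, so 1 stretch can count for more than 1 motif. A match describes the letters of the window and is not a binding site.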

How the data were processed

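RNA-seq read counts per gene came from 20 rat kidney libraries (total RNA, poly(A) selection, stranded paired reads). The deposited table holds signal values that are counts divided by the authors' DESeq2 size factors, per the file headers. Per the submitters' processing notes, STAR, featureCounts of Subread 1.5.0, SAMtools 1.0, Picard 1.119, FastQC 0.11.2 and build rn6 were used. Whole reads were recovered from the steps of the low values (100% of values within 0.1 read of a whole read). A depth of 23265956 or more non-mitochondrial reads per library sets the precision of low values.

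Rows with a value of 10 in 3 libraries were tested with limma 3.58.1 (R 4.3.3), with trend, on log2(value + 1) in 1 fit of 4 group means. Fold changes understate those of low genes on this scale. Adjusted p-values are Benjamini-Hochberg over all 15954 rows, in 6 comparisons. A first letter of R or S in library names was tried as a covariate; it is a name, not a stated batch. Alternatives included edgeR 4.0.16 and DESeq2 1.42.0 on the recovered reads, other pseudocounts, filters and scalings, Sham 1 and 6 alone, and each library left out. Members named with values were those with the 6 largest rises and falls against Sham (4 between injury groups) among calls with a mean of 50 or more, a fixed list of 21 others and, chosen after their values were seen, the remaining called members; of non-members, fixed names and up to 4 per list were eligible. The member rule and the gene lists, like the motifs, were chosen with earlier results of these data known. Levels printed as at least N-fold use 3 reads over the group at 0. Of the columns of per-sample values, 0 were left unused.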

Additional observations from a re-analysis of the deposited data

Results flagged for a closer look

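Within-group outliers were looked for in each member and each group of 4 to 6 libraries, 144 sets in all. By Dixon's 95% criterion 17 sets (11.8%) held 1 library apart from the others. The criterion allows about 1 in 20 for values with a normal spread. It was applied here to reads without a log, some of them at or near 0, so that rate need not hold. No excess of outliers is read from the count. Cyp2b1 in HS was flagged with its other libraries all at 0, where any read gives a flag. Values are normalized reads. The high libraries in HS were HS 1 for Cyp2t1 (617), Cyp7b1 (1188), Cyp21a1 (46.5) and Cyp2b1 (4.99), HS 3 for Cyp2s1 (3446) and HS 2 for Cyp4f5 (145). In RM they were RM 4 for Cyp4a1 (3468), RM 2 for Cyp4x1 (219), RM 3 for Cyp1b1 (285) and RM 6 for Cyp2b1 (8.87). In Sham they were Sham 2 for Cyp4f18 (28.4) and Cyp4x1 (95.4), and Sham 6 for Cyp4f5 (154), Cyp4f4 (72.0) and Cyp4f6 (1995). The low libraries were RM 4 for Cyp2d1 (4777) and HS 3 for Cyp27a1 (155). Of these 17, 4 lay in HS 1 and 3 in Sham 6. No library stood apart in Cyp1a1, Cyp3a9, Cyp4v3 or Cyp24a1 in any tested group.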

How the results depend on the processing

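Over the alternatives, the fewest calls were kept among libraries named R alone, with Sham 1 and 6 alone and with the name letter as a covariate. Both subsets hold fewer libraries, so a call can be lost there at a like fold change. How far lost calls follow from fewer libraries, or from which ones were used, was not tested. With Sham 1 and 6 as the only controls 11 members passed in RM, 9 in HS and 9 in RM-HS, against 29, 25 and 20. Of all rows 32.9%, 25.7% and 27.2% passed, against 53%, 46.4% and 42.3%. With the name letter as a covariate 9 passed in RM, 0 in RM-HS against RM and 2 in RM-HS against HS, beside 28.5%, 0% and 14.4% of all rows; among libraries named R alone, with 1 RM library assumed to vary like the other groups, 1 passed in RM, 1 in RM against HS, 0 in RM-HS against RM and 2 in RM-HS against HS, beside 4.8%, 1.22%, 0% and 7.54% of all rows. DESeq2 called 3 in RM-HS against RM, and TMM scaling and edgeR 3 each in RM-HS against HS. Leaving out 1 library gave 23 to 30 members in RM, 23 to 28 in HS, 15 to 26 in RM-HS, 6 to 11 in RM against HS, 0 to 2 in RM-HS against RM and 2 to 7 in RM-HS against HS. Signs reversed with Sham 1 and 6 in RM for Cyp4a1 (-0.29), Cyp27b1 (-0.22), Cyp2d5 (0.0012) and Cyp2d1 (0.020), in HS for Cyp2c23 (-0.12) and in RM-HS for Cyp27b1 (-0.063), and among libraries named R alone for Cyp7b1 in RM (-0.49); the cause was not tested. Of 89 called member comparisons 87 were kept under TMM, 83 under upper quartile scaling, 78 with edgeR, 82 with DESeq2, 63 with the name letter, 40 with Sham 1 and 6 (6 reversed), 39 among libraries named R alone (49 lost, 1 reversed) and 66 whichever single library was left out. No paired analysis was possible because the labels do not link libraries of different groups to each other. Depth limits the low members, such as Cyp2b1 with 55 reads.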
